A study of Mus musculus with 82 samples.

Results

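The genes described here are 3 globins and 2 proteins of the red cell membrane in mouse liver: Hba-x, Hbb-y, Hba-a1, Ermap and Rhag. They were taken by the gene symbol that the platform annotation gives a probe, and each symbol had 1 probe, so that 5 of the 21936 probes on each array were members. The arrays had 21915 features after probes of one symbol were averaged, of which 3439 carried a gene name.

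The series measured liver RNA of BXD recombinant inbred mice, whose genomes are mosaics of the parents C57BL/6J (B6) and DBA/2J (D2), on 82 two-colour arrays. On 74 arrays the partner of liver was an RNA mix made from day 17.5 embryos of B6, and of these 40 held BXD females, 32 BXD males and 2 B6 males. B6 liver met D2 liver directly on 6 arrays, 3 per sex, and on 2 arrays, 1 per sex, so did RNAs called enriched, a word the labels leave unexplained. The series text gives ages of 10 to 20 weeks, 18 BXD strains and 3 unfasted males for each, whereas the array labels hold 17 BXD strains and both sexes. No treatment was named for any group. The labels do not say whether an RNA came from 1 mouse or from a pool, so each p-value below measures the spread between these strains or arrays, part of which may be technical.

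Red cells carry oxygen on hemoglobin, a tetramer of alpha-like and beta-like globin chains around heme. Primitive red cells of the yolk sac use embryonic globins, and the liver of the late embryo is the main organ of red cell formation until the marrow takes over after birth. Adult mouse liver makes few red cells and instead holds those of the blood that passes through it, besides handling iron and the heme of old red cells. Erythroid genes are commonly switched on by GATA1, which binds GATA sequences, together with KLF1, which binds CACCC sequences.

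The bases before the start of each gene are shown because both of these letter groups were searched in them. They are the 250 bases upstream of the RefSeq start on GRCm38.p6, written in the direction of the gene, with GATAA and CACCC in capitals, or TTATC and GGGTG where the match lies on the other strand. The embryonic alpha-like globin Hba-x (chr11:32276350-32276599, plus strand), the embryonic beta-like globin Hbb-y (chr7:103853208-103853457, minus strand), the adult alpha globin Hba-a1 (chr11:32283422-32283671, plus strand), Ermap (chr4:119189996-119190245, minus strand) and Rhag (chr17:40810899-40811148, plus strand) read as follows.
Hba-x: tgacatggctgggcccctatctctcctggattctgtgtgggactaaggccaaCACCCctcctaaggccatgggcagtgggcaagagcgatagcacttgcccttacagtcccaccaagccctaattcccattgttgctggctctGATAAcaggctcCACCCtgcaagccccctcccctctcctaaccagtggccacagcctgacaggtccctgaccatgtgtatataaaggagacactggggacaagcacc
Hbb-y: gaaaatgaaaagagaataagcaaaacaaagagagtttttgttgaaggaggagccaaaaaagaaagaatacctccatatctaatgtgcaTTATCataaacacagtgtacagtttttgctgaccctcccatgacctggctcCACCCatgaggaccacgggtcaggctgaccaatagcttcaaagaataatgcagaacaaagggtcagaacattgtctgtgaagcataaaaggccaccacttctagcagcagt
Hba-a1: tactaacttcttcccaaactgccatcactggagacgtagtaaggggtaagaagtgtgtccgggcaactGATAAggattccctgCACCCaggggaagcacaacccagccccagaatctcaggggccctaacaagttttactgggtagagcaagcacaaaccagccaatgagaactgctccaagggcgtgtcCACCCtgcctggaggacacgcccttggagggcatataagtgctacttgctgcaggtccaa
Ermap: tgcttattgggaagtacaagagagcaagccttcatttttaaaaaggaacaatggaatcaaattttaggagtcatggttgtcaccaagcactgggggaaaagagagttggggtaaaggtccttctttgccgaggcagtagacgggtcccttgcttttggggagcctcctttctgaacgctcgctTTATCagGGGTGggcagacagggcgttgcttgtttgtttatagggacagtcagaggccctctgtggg
Rhag: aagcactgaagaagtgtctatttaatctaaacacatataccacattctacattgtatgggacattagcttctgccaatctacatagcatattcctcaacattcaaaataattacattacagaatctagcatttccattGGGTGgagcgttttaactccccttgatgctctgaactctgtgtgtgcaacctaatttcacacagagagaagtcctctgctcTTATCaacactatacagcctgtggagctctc

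Each of the 5 stretches held GATAA and CACCC on one strand or the other. Over the 32851 RefSeq gene starts with such a stretch, GATAA was found in 22.6%, CACCC in 52.0% and both in 10.1%. CCAAT was searched as well and was found in 33.9% of them. It was absent from the stretch of Hba-x and present in those of the other members. GATAA began 107 bases before the start of Hba-x, 162 before that of Hbb-y, 182 before that of Hba-a1, 67 before that of Ermap and 31 before that of Rhag. In Ermap the matches to GATAA and CACCC lay 67 and 60 bases before the start, side by side, both on the other strand. These matches describe the letters only, and whether any of them is bound was not tested. The stretch of Hba-a1 shared an unbroken run of 247 of its 250 bases with that of Hba-a2, its near-identical neighbour. The probe letters were not used here, so what the Hba-a1 probe reads of Hba-a2, or the Hbb-y and Hba-x probes of other globins, cannot be told apart.

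The values are log2 ratios, worked out from deposited ratios that were read as log10, so every fold rests on that reading. The ratio was likely deposited as channel 2 over channel 1, since hepatocyte genes then stood above embryonic genes on 74 of 74 arrays. Arrays of opposite channel order against the embryo mix correlated between -0.895 and -0.556 before they were turned the same way. On the direct B6 and D2 arrays the corresponding correlations were 0.0187 for males and -0.133 for females, which gives no support for a direction there. The spread of an array (SD over probes) was 0.694 to 1.12 for BXD liver against embryo and 0.282 to 0.64 for B6 against D2. Spot intensities were not used here, so whether a gene was above background in either RNA is unknown, and no level was compared between genes. For the labelled tissue, 14 of 15 measured hepatocyte genes were called higher in liver (limma, median log2 ratio 3.87), although the same list had served to settle the direction.

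Adult liver held less of the adult alpha globin and of Ermap than the embryo mix did. Hba-a1 encodes the alpha chain of adult hemoglobin. Its log2 ratio of liver over embryo ran over the 13 strains with both channel orders from -2.21 in BXD16 through a median of -1.77 to -1.24 in BXD11. All 13 strains thus lay below the mix, 3.40-fold on average (log2 -1.77 ± 0.27 SD, limma adjusted p = 9.23e-13). Ermap encodes a membrane protein of the immunoglobulin superfamily on erythroblasts and red cells, which carries the Scianna blood group in humans. Its ratio ran from -2.54 in BXD28 through a median of -1.92 to -1.66 in BXD5. All 13 strains were again below the mix, by 3.84-fold (log2 -1.94 ± 0.23 SD, limma adjusted p = 4.19e-14). A call here needed an adjusted p under 0.05 and an absolute log2 ratio of at least 1. By that rule 2 of the 5 genes were called lower in liver, as were 9.17% of all features, and none was called higher, against 4.69% of all features. In such bulk RNA, fewer red cells or erythroblasts and less RNA per cell cannot be told apart.

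The 2 embryonic globins lay closer to the mix. Hba-x encodes zeta globin, the alpha-like chain of primitive red cells. Its log2 ratio ran from -0.75 in BXD11 through a median of -0.53 to -0.30 in BXD28, below 0 in 13 of 13 strains. Hba-x was on average 1.45-fold lower in liver (log2 -0.53 ± 0.12 SD, limma adjusted p = 3.95e-10), under the size that a call needed. Hbb-y encodes the epsilon-y chain, its beta-like partner in primitive red cells. Its ratio ran from -1.01 in BXD6 through a median of -0.72 to -0.44 in BXD31, also below 0 in 13 of 13 strains. Hbb-y was 1.63-fold lower in liver (log2 -0.70 ± 0.17 SD, limma adjusted p = 6.51e-10), again under that size. The strain ranges of these globins did not overlap those of Hba-a1 or Ermap. Hbb-bh1, a further embryonic beta-like globin and the only one with a named feature among 14 other listed globin genes and partners, was at -0.16 ± 0.09.

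Rhag differed in sign from the other 4 genes. Rhag encodes the Rh-associated glycoprotein, which holds the Rh complex in the red cell membrane and passes ammonium. Its log2 ratio ran from -0.0015 in BXD28 through a median of 0.66 to 0.98 in BXD21, above 0 in 12 of 13 strains. Rhag was on average 1.46-fold higher in liver (log2 0.55 ± 0.32 SD, limma adjusted p = 9.82e-06), which did not reach the size of a call. At any size, limma's adjusted p was under 0.05 for all 5 genes, 4 of them lower and 1 higher in liver. The same held for 35.6% of all features on the lower side and 48.3% on the higher side, so a small shift such as that of Hba-x, Hbb-y or Rhag was common on these arrays. The median over all features was 0.07. The embryo mix was 1 reference, and its own spread is outside these tests.

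**Figure D1:**
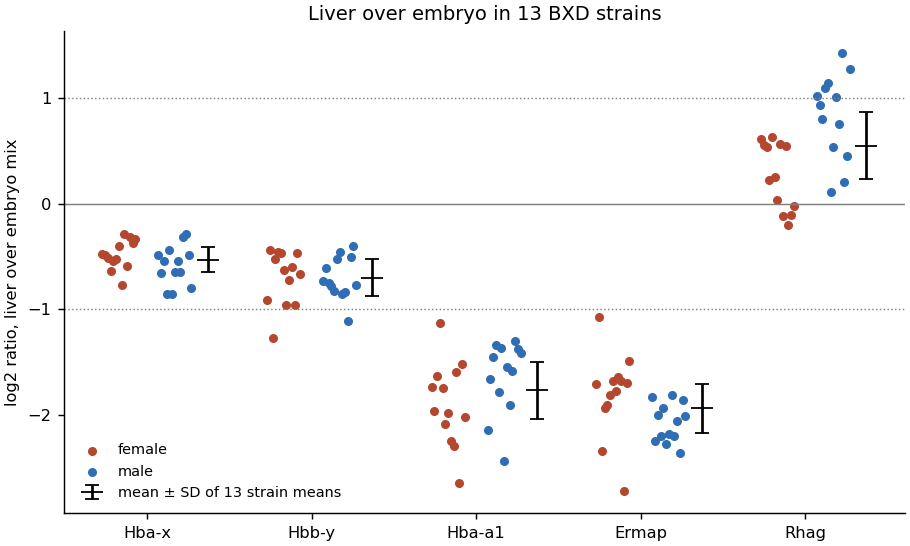
Log2 ratio of liver over embryo mix for each of the 5 genes in 13 BXD strains with both channel orders, 1 point per strain and sex, females red and males blue. The bar is the mean ± SD of the 13 strain means, and dotted lines mark a 2-fold ratio. Hba-a1 and Ermap lie below -1 in every strain and sex, Hba-x and Hbb-y lie between 0 and -1.27, and the male points of Rhag lie mostly above the female ones.

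The channel that held the liver RNA moved the small ratios. Hba-x averaged -0.36 with liver in channel 1 and -0.68 with liver in channel 2 over the 13 strains, a difference of 0.32 ± 0.24 (SD) that was positive in 12 of 13. Hbb-y averaged -0.54 and -0.83, and the difference of 0.29 ± 0.23 was again positive in 12 of 13. Rhag averaged 0.64 and 0.38, with a positive difference in 10 of 13 strains. Ermap differed by 0.18 ± 0.50. Hba-a1 went the other way, with -1.91 in channel 1, -1.66 in channel 2 and a lower value in channel 1 in 11 of 13 strains. The median size of this difference over all features was 0.21. The direction of all 5 genes against the embryo was the same in either channel order alone.

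By single arrays, Hba-x ranged with liver in channel 1 from -1.18 through a median of -0.24 to 0.47, with 28 of 41 arrays below 0, and with liver in channel 2 from -1.23 through -0.69 to -0.24, with 31 of 31 below 0. Hbb-y was below 0 on all 72 BXD arrays, from -1.83 to -0.05 in channel 1 and from -1.27 to -0.43 in channel 2. Hba-a1 had its highest value at -1.15 in channel 1 and at -1.09 in channel 2, so no BXD array came within 2-fold of the mix. Ermap spread more, from -3.18 to -0.40 in channel 1 and from -3.19 to -1.02 in channel 2. Rhag crossed 0 in both orders, with 5 of 41 and 8 of 31 arrays below it. BXD strains 8, 9, 14 and 27 had liver in channel 1 only and were left out of the liver and embryo means for that reason. In them Hba-x averaged 0.25, 0.06, 0.26 and -0.12, above the means of both orders in the 13 other strains. Hba-x read higher with liver in channel 1, so those means are not on a like basis with these values. With liver in channel 1 alone the 13 other strains averaged -0.36 ± 0.20 (SD), still below each of these values. The reason for that gap was not tested.

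**Figure D2:**
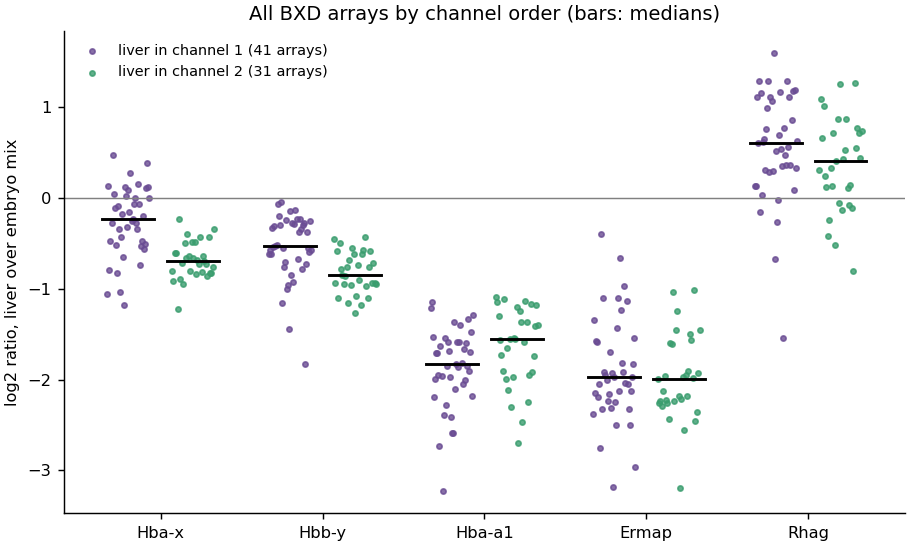
Log2 ratio of liver over embryo mix on each of the 72 BXD arrays, with liver in channel 1 (41 arrays, purple) or in channel 2 (31 arrays, green). Horizontal bars are medians. Hba-x, with medians of -0.24 and -0.69, and Hbb-y, with -0.53 and -0.85, lie higher with liver in channel 1, and Hba-a1, with -1.83 and -1.56, lies lower.

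Rhag was the only one of the 5 genes called between the sexes. Its female log2 ratio over the embryo mix ran over 17 strains from -0.68 through a median of 0.22 to 0.63. The male ratio ran from 0.11 through 0.94 to 1.42. Female values were lower in 16 of 17 strains, with BXD15 as the exception (0.14 higher), and the ranges of the sexes overlapped. The female mean of 0.18 ± 0.37 (SD) and the male mean of 0.84 ± 0.38 differed by -0.66 ± 0.41, a 1.57-fold lower level in females (limma with strain as a block, adjusted p = 8.54e-05). The largest differences were those of BXD14 (-1.30), BXD32 (-1.30), BXD27 (-1.19) and BXD8 (-1.10). Of all features, 17.2% were called lower in females and 16.5% higher, so 1 called gene of 5 is no larger a share than the background.

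The sex difference of Rhag was present in both channel orders, at -0.71 with liver in channel 1 and -0.48 with liver in channel 2 (limma adjusted p = 1.77e-05 and 0.0217). The channel 1 value covers 17 strains, with the 4 of 1 order among them, and the channel 2 value 13, so their sizes are not on a like basis. Over the 13 strains with both orders it was -0.56 ± 0.36. In the 4 strains with 1 order it was -0.97 ± 0.46, lower in females in 4 of 4, although limma gave an adjusted p of 0.273 on those alone. Runs here are stretches of arrays in the order of deposit, which the titles do not name as batches. Of these, 5 runs held BXD arrays of both sexes. Within them Rhag differed by -0.69, -0.55, -0.51, -0.90 and -1.19. The run at -0.55 held 1 female value, and the run at -1.19 held 1 value per sex. With the run as a term the difference was -0.73 (limma adjusted p = 5.09e-04). That fit used 39 values, 1 per strain, sex and replicate number, and did not have strain as a block. With each strain left out in turn the difference lay between -0.71 and -0.62. The male mean alone was 0.83 above the mix in the 13 strains with both orders, and the female mean 0.27.

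The other 4 genes were not called between the sexes. Hba-a1 averaged -1.92 ± 0.37 in females and -1.67 ± 0.39 in males, a difference of -0.25 ± 0.48 that was negative in 12 of 17 strains (limma adjusted p = 0.0929). It was called when arrays were scaled to one spread (-0.54, adjusted p = 0.013), after quantile normalization (-0.35, adjusted p = 0.0428) and without BXD16 (-0.29, adjusted p = 0.0466), all by limma. The largest difference of Hba-a1, -1.34 in BXD28, was seen in both channel orders, with -2.59 and -2.70 in the female against -1.36 and -1.24 in the male. Ermap averaged -1.90 ± 0.49 in females and -2.11 ± 0.28 in males, higher in females in 12 of 17 strains (0.20 ± 0.60, limma adjusted p = 0.268). Hba-x (0.07 ± 0.26, adjusted p = 0.431) and Hbb-y (-0.04 ± 0.42, adjusted p = 0.797) differed by less than the spread between strains in the same fit.

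Among the 17 female strain values, that of BXD27 was the lowest for Hbb-y (-1.45), Ermap (-3.18) and Rhag (-0.68), where the male BXD27 values were -0.15, -1.98 and 0.51. The female value rests on a single array with 1 channel order, while most strain values are means of several arrays, and single female arrays of other strains lay lower for each of these genes (Hbb-y -1.83 in BXD6, Ermap -3.19 in BXD28, Rhag -1.55 in BXD31). Without BXD27 the sex difference of Rhag was -0.62 (limma adjusted p = 1.35e-04) and that of Ermap 0.29 (adjusted p = 0.0547), and that of Hbb-y turned from -0.04 to 0.04, uncalled either way.

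**Figure D3:**
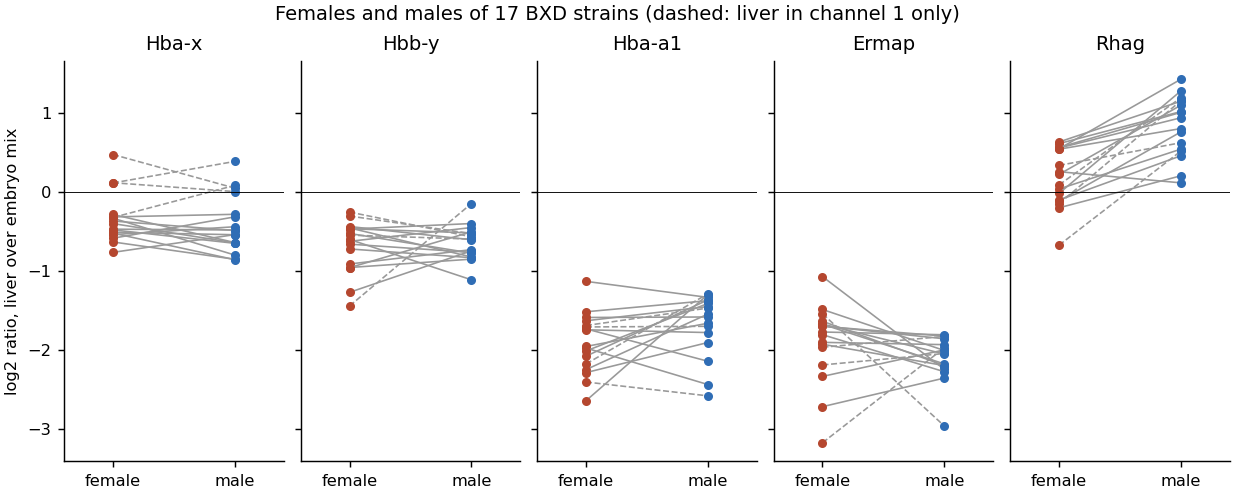
Log2 ratio of liver over embryo mix in females (red) and males (blue) of 17 BXD strains, 1 panel per gene, with a line joining the sexes of a strain. Dashed lines mark the 4 strains with liver in channel 1 only. Lines for Rhag rise from female to male in 16 of 17 strains, while those of the other genes cross.

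None of the 5 genes was called between strains, where 1.2% of all features were. Rhag came nearest, with a moderated F of 3.58 over 13 strains (limma adjusted p = 0.209), and 5.23% of features had a larger F. Its strain means spanned 1.98-fold, with BXD28 (-0.0015), BXD31 (0.17) and BXD15 (0.18) at the low end and BXD12 (0.89) and BXD21 (0.98) at the high end. The SD across strain means was 0.32 and the residual SD of single values 0.25, which are not on a like scale. Single strains were not tested against each other, so whether neighbours in that order differ is not known. Female and male values of Rhag correlated at 0.531 over the 13 strains. With liver in channel 1 alone, Rhag was called between strains (SD 0.36, limma adjusted p = 0.0462), and with liver in channel 2 alone it was not (SD 0.35, adjusted p = 0.617).

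For the remaining genes the residual SD of single values was larger than the SD of strain means. A strain mean averages a female and a male value, so these SDs are not on a like scale. The residual SD was 0.36 against 0.27 for Hba-a1, 0.29 against 0.23 for Ermap, 0.21 against 0.17 for Hbb-y and 0.16 against 0.12 for Hba-x. Limma's moderated F was 1.36 for Hba-a1 (adjusted p = 0.601) and 1.5 for Ermap (adjusted p = 0.562). It was 1.48 for Hbb-y (adjusted p = 0.568) and 1.1 for Hba-x (adjusted p = 0.688). Their female and male values correlated between 0.05 and 0.16 over the strains.

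Correlations between members over the strains were weak to moderate. No member was called between strains, so these correlations cannot show whether the members share a strain difference. Over 26 values of strain and sex, centred within each sex, Pearson's r between members ran from -0.446 for Hbb-y with Rhag to 0.347 for Hbb-y with Ermap. All of these values share the embryo mix and, for 2 genes of one sample, the same arrays. By the same measure, the named features most like Rhag were Cbln3 (0.860), Map4k2 (0.856) and Hsd3b1 (0.856), and those most like Ermap were Bcan (0.920), Neb (0.882) and Magi2 (0.873). Close to Hba-a1 stood Cnot7 (0.692) and Pzp (0.687). Hbb-y was most like Panx1 (0.729), Klc1 (0.714) and Cnr1 (0.700), and Hba-x most like D1Pas1 (0.650), Trpc6 (0.642) and Pth (0.606). With Spearman's rank correlation in place of Pearson's r, none of the features given for Rhag or Hbb-y stayed among the 3 most like. Neb stayed for Ermap, Pzp for Hba-a1 and all 3 for Hba-x. No globin or listed red cell gene was among these 14 features, but few of the 3439 named features are listed red cell genes. Their absence therefore carries little weight. Each r given for these features is among the highest over all those searched, and no level by chance was worked out. The search passed over the members, which left Hbb-bh1 as the only listed globin that it could find.

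Liver of B6 males, the strain of the embryo mix, gave 1 RNA in both channel orders, for which no test was made. Hba-x read -0.11 and -0.46 in the 2 orders, and its mean of -0.28 lay at the upper edge of the 13 BXD males, which ran from -0.86 to -0.29. Ermap read -1.26 and -1.21, and its mean of -1.23 lay above all 13 BXD males (-2.36 to -1.81). Hba-a1 at -1.63, Hbb-y at -0.88 and Rhag at 0.79 lay inside the range of the BXD males, with 5, 1 and 5 of the 13 below them.

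On the direct arrays of B6 against D2 liver none of the 5 genes was called, as was the case for all but 0.178% of features. Each gene had 4 values of B6 over D2, 1 per sex and replicate number, and replicate 2 of each sex had B6 in channel 2 only. The direction of these ratios was taken over from the embryo arrays and is less sure here. Hba-x read -0.22 and -0.56 in males and -0.47 and -0.78 in females. It was thus lower in B6 in 4 of 4 values, with a mean of -0.51 ± 0.23 (SD, limma adjusted p = 0.250). On single arrays Hba-x read 0.18 and -0.0013 with B6 in channel 1 and between -0.94 and -0.56 with B6 in channel 2, so its negative means came from the arrays with B6 in channel 2. Enriched RNA, with B6 in channel 2 as well, gave -0.73 in the male and -0.03 in the female.

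Hba-a1 read 0.36 and -0.41 in males and 0.84 and 0.71 in females (mean 0.37 ± 0.56, limma adjusted p = 0.432). Rhag read -0.02 and -0.44 in males and 0.33 and 0.57 in females (mean 0.11 ± 0.44, limma adjusted p = 0.754). Ermap read 0.02 and -0.40 in males and -0.15 and 0.79 in females (mean 0.06 ± 0.51, limma adjusted p = 0.881). Hbb-y read 0.16 and -0.24 in males and -0.36 and -0.05 in females (mean -0.12 ± 0.23, limma adjusted p = 0.571). Only Hba-a1 and Rhag had both female values above both male values. The difference of B6 over D2 between the sexes was 0.68 for Rhag (limma adjusted p = 0.631) and 0.80 for Hba-a1 (limma adjusted p = 0.657). In that comparison 0 of all features were called by limma, with 1673 at an unadjusted p under 0.05. Enriched RNA gave Rhag at -0.35 in both sexes and Hba-a1 at -0.18 and -0.25.

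**Figure D4:**
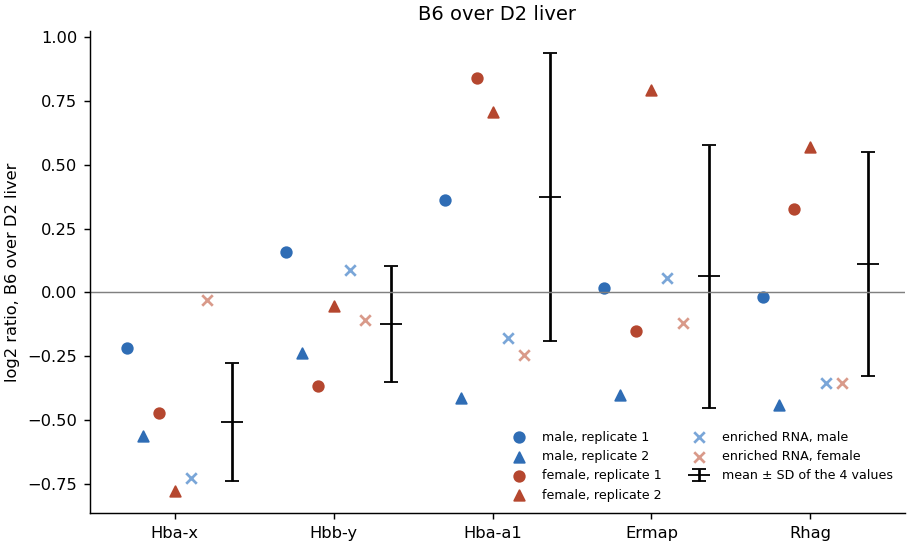
Log2 ratio of B6 over D2 liver for each of the 5 genes, with males blue, females red, replicate 1 as circles and replicate 2 as triangles. Crosses are the enriched RNAs, which are not in the mean ± SD of the 4 values drawn as bars. All 4 values of Hba-x lie below 0, and for Hba-a1 and Rhag the female points lie above the male ones.

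Genes of the red cell beside the members were split in direction. Over all features, 9.17% were called lower and 4.69% higher in liver. In the red cell membrane and skeleton list, 2 of 8 measured genes (of 28 listed) were called lower in liver and none higher (limma, median log2 ratio -0.43). Named among those was Ank1, the ankyrin that ties the skeleton to the membrane (-1.19 ± 0.18), and the adducin Add1, at -0.88 ± 0.11, was under the size of a call. Of 8 measured red cell enzymes, the carbonic anhydrase Car2 (-2.51), the glycolytic enzyme Aldoa (-2.46) and Bpgm, which makes the regulator of oxygen release (-1.14), were called lower. Catalase (Cat, 2.46) and the peroxidase Gpx1 (1.76), both also abundant in hepatocytes, were called higher.

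None of 4 heme synthesis genes was called, with Alad at 0.95, Cpox at 0.56, Fech at 0.04 and Abcb10 at -0.65. Among 12 regulators and signalling genes of the erythroid lineage, Myb (-1.73) and the mitophagy receptor Bnip3l (-1.07) were called lower (median -0.49). Iron and heme handling went the other way, with 4 of 10 measured genes called higher and none lower (median 0.73). Those 4 were the ferroxidase Cp (3.07), the hemoglobin-binding Hp (2.26), the transferrin sensor Tfr2 (2.23) and Hfe (1.20), all expressed by hepatocytes. Other blood lineages were split: the platelet factor Pf4 was at -2.97 as 1 called of 4 platelet genes, and Ngp (-2.62) and S100a8 (-1.17) as 2 called of 4 neutrophil genes. In the same lists Gp1ba (0.35) and Elane (0.18) lay above 0. Of 7 lymphocyte genes Cd4 (1.10) was called higher and none lower (median 0.19), and none of 5 macrophage genes was called (median 0.10). Of 9 cell division genes 7 were called lower (median -2.13). What part these lineages or dividing cells had in the ratios of the globins was not tested.

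Between the sexes, genes of the red cell lists were called in both directions. Over all features, 16.5% were called higher and 17.2% lower in females. In the membrane and skeleton list 3 of 8 genes were called higher in females and none lower: Cd47 (0.53), Add1 (0.22) and Add2 (0.11). Of the red cell enzymes, 3 of 8 were called lower in females, as Rhag was: Cat (-0.50), Aldoa (-0.33) and Car1 (-0.25), while Car2 (0.47) was called higher. The regulator list had 5 of 12 called higher, among them Myb (0.29) and Kit (0.25), and 2 lower, Stat5a (-0.32) and Ldb1 (-0.17). Of the platelet genes Pf4 (0.43) and Thbs1 (0.19) were called higher and Gp1ba (-0.53) and Itga2b (-0.31) lower in females. Of 5 macrophage and 7 lymphocyte genes, 3 each were called higher in females and none lower. Limma called Alad between strains (adjusted p = 0.00747), alone among the red cell and blood lineage genes listed, and none of these genes between B6 and D2.

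**Figure D5:**
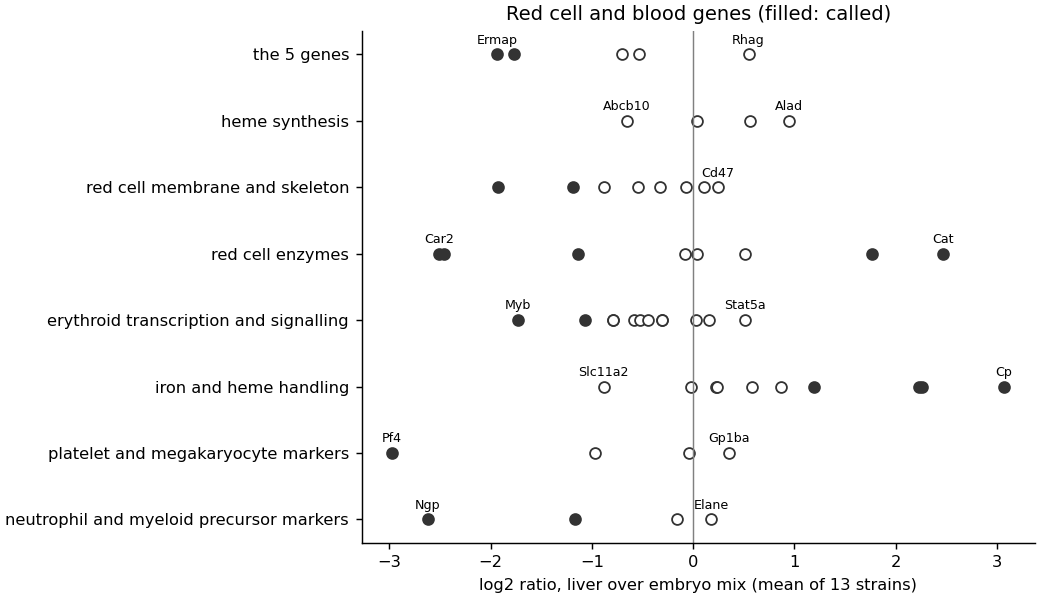
Log2 ratio of liver over embryo mix (mean of 13 strains) for the 5 genes and for listed genes of the red cell and other blood lineages, 1 circle per gene, filled where limma called it. The lowest and the highest gene of each list are named, except the lowest of the membrane and skeleton list. Called genes of the membrane, regulator, platelet and neutrophil lists lie below -1, and those of iron and heme handling above 1.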

How the data were processed

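Per the labels, liver RNA was hybridised on 82 two-colour arrays of 21936 probes. Each array has 1 deposited log ratio for a probe, and the deposited ratios were read as log10, since 94 of them sit exactly at the bound of 2, a 100-fold ratio, and converted to log2. Neither base, scanner nor normalization by the authors is stated in the labels or files. Array medians lay between -0.00165 and 0.115, and the number of arrays limits the precision. Both channels carry the same dye label, so the ratio was read as channel 2 over channel 1 on the basis described in the text, and values with the sample in channel 1 were multiplied by -1. One BXD11 female array has a title that contradicts its channels and was read by its channels (r 0.846 with the array of the same order, -0.835 with the opposite one).

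Names came from the platform annotation (3290 probes with 1 symbol, 4 with several) and, for 170 probes, by accession from the RefSeq gene table of GRCm38.p6, leaving 18476 unnamed. Arrays were averaged within channel order and then across orders per strain and sex. All tests were made with lmFit and eBayes of limma (version 3.58.1, under R 4.3.3) over all 21915 features with Benjamini-Hochberg adjustment at 0.05, and were tested on simulated data first. Liver was tested on 13 strain means, sex on 17 strains with strain as a block, strain by a moderated F with sex as a term, and B6 against D2 on 4 values. Named genes are the 5 members and listed genes that were called or among the 3 largest in a list. The 3 named features most like each member were added, with clone names and members passed over. The results of some genes that met this rule are not reported here. The members and lists were chosen with earlier results of these data known. Alternatives covered centring, scaling, log base, channel order, sex, strains left out, deposit runs and replicate numbers.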

Additional observations from a re-analysis of the deposited data

How the results depend on the processing

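The base of the logarithm and the direction of the B6 and D2 arrays are inferred, the embryo mix is 1 reference, and signal over background is unknown. By limma, 3037 features were called between liver and embryo, and 205 or 615 if the deposited values were log2 or natural logs. Hba-a1 (-0.53 and -0.77) and Ermap (-0.58 and -0.84) then miss the size of a call. For the sexes, 7381 calls became 3209 among features of higher SD, where fewer were tested, and 0 in the 4 strains with 1 channel order, with 3276 at an unadjusted p under 0.05. For strains, 262 calls became 164 with liver in channel 1, 101 with liver in channel 2, 156 with the BXD11 array turned, and 139 (without BXD15) to 278 with each strain left out. For B6 against D2, 39 calls became 74 after scaling, 24 after quantile normalization, 25 with replicate 1 only and 510 with the enriched arrays added. They became 0 with limma's trend and robust settings (746 at an unadjusted p under 0.05), and 0 (without male replicate 1, 3016 at an unadjusted p under 0.05), 3 (without female replicate 1), 2 (without male replicate 2) and 29 (without female replicate 2) with 1 value left out. The replicate number as a block left 9 calls there. Between the sexes, 1 value per strain, sex and replicate number gave 6369 calls without that block and 6019 with it. Neither of these fits had strain as a term. Male and female differences between replicates 1 and 2 correlated at 0.325 across features, but replicate 2 had 1 channel order only, so this does not show that the numbers pair the samples. The block changed no member's call. The sex difference of B6 over D2 had 0 calls with the block (1719 at an unadjusted p under 0.05) and with each value left out (495 to 2972), an alternative chosen after seeing the data, in which a lone value is assumed to vary like the other sex. The causes were not tested. Calls of members that changed by scaling, strain or channel order are given with the results above. No alternative reversed a called member.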
